A study of Rattus norvegicus with 8 samples.

Results

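The miR-15 seed family, which takes in miR-15b, miR-16, miR-195, miR-497 and miR-322, was measured in the left medial vestibular nucleus (MVN), the brainstem nucleus that receives input from the vestibular nerve. Its members were chosen by name, as the arms of these miRNAs on the array, and they were 8 of 758 rat miRNAs: rno-miR-497-5p, rno-miR-195-5p, rno-miR-195-3p, rno-miR-15b-5p, rno-miR-15b-3p, rno-miR-16-5p, rno-miR-322-5p and rno-miR-322-3p. The prefix rno stands for rat and is left out from here on. The 5p and 3p arms are the mature strands cut from either side of a precursor hairpin. Of the 8 arms, 7 were detected on at least 1 array, 6 were detected on all 8 arrays, and miR-195-3p was detected on none.

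All rats were male Sprague–Dawley animals aged 7 weeks. The UVD group underwent unilateral vestibular deafferentation by labyrinthectomy on the left side, in which the inner ear was opened with a drill and ethanol was injected. The SO group had a sham operation on the same side, without this opening and without ethanol. The labels name the vestibule as the site that was opened, and the study's methods name semicircular canals. MVNs were taken at 4 h or at 4 d after surgery, 3 animals were pooled for each array, and each of the 4 groups had 2 arrays. The SO group is a control for the surgery, and no unoperated animals were analysed here.

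miRNAs of this family share a seed, the short stretch near the 5′ end through which a miRNA recognizes its target mRNAs. The family is known for repressing cyclins and other genes of cell cycle entry and the anti-apoptotic gene Bcl2, and for increasing as cells leave the cell cycle. The members are transcribed from several separate clusters, so arms with the same seed can be regulated apart from each other. miR-322 is the rodent counterpart of human miR-424.

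The mature sequences of the 5p arms are shown because the seed defines the family while the remaining bases are what separates 1 probe target from another. They are RefSeq sequences placed on build GRCr8, written 5′ to 3′, and the capitals mark bases 2 to 8, the seed.
miR-497-5p: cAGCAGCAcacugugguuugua
miR-195-5p: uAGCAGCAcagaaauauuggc
miR-15b-5p: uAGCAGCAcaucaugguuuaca
miR-16-5p: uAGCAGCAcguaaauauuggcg
miR-322-5p: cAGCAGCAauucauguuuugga

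All 5 of these arms carried the same 7 letters at bases 2 to 8. Among the 685 of 758 array miRNAs that matched a RefSeq mature sequence, 5 had these letters at bases 2 to 8, and all 5 were members. Another 2, miR-103-3p and miR-107-3p, had them at bases 1 to 7. miR-503-5p, from the precursor next to miR-322, differs in the last base of the seed, and miR-15a-5p had no entry. The following sequences are shown for that comparison, with bases 2 to 8 in capitals for miR-503-5p and the 7 matching letters in capitals for miR-103-3p and miR-107-3p.
miR-503-5p: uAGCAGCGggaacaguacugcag
miR-103-3p: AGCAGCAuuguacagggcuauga
miR-107-3p: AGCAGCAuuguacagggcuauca

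Outside the seed the 5p arms differed to unequal degrees. Counted from base 1 at the 5′ end, with the shared seed included, miR-497-5p and miR-195-5p had the same base at 12 of 21 positions. miR-497-5p and miR-15b-5p had the same base at 16 of 22. miR-195-5p and miR-16-5p had the same base at 19 of 21 positions, with the substitutions A10G and G11U from miR-195-5p to miR-16-5p. Cross-hybridization between these arms was not tested.

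RefSeq placed the 5p arms on 3 chromosomes. An array signal of a mature arm does not tell which precursor gene it came from. miR-497-5p (chr10:55450172-55450193) and miR-195-5p (chr10:55450509-55450529) lay on the plus strand, with 255 bases between the precursors Mir497 and Mir195. miR-15b-5p (chr2:155555197-155555218) and miR-16-5p (chr2:155555343-155555364) lay on the plus strand inside the protein-coding gene Smc4, with 51 bases between their precursors. miR-322-5p (chrX:137726198-137726219) lay on the minus strand inside the long noncoding RNA gene LOC102550366, 220 bases from Mir503.

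The arrays shared 1 slide and 1 scan. Between 378 and 430 miRNAs were detected per array, no spot was saturated, and the lowest number was that of UVD 4 h replicate 2. UVD and SO arrays lay in different rows of the slide and the timepoints in different columns, so position cannot be told apart from operation or time. All 7 neuron-enriched and all 4 oligodendrocyte miRNAs listed for a check of the tissue, miR-124-3p and miR-219a-5p among them, were detected on every array. Levels are given as normalized intensity, which is the total gene signal of a miRNA after quantile normalization over the 8 arrays. Fold changes are on the log2 scale, from limma with all 4 groups in 1 model over 422 tested miRNAs. Adjusted p-values are Benjamini-Hochberg values over these miRNAs with a threshold of 0.05. The spread behind them is that between 2 pools of animals, and in pooled tissue a change in cell number cannot be told apart from a change in RNA per cell.

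miR-497-5p and miR-195-5p had higher levels at 4 d than at 4 h after both operations, and their 95% intervals excluded 0, but neither passed the adjusted threshold. The normalized intensity of miR-497-5p in the UVD group was 1014 and 1030 at 4 h and 1503 and 1834 at 4 d. In the SO group it was 976 and 880 at 4 h and 1161 and 1464 at 4 d. Each 4 d array was above each 4 h array, also across the operations. The study picked miR-497-5p as a candidate by its time difference in the UVD group and screened on that in the SO group, both on these arrays, so these differences are a description and the adjusted p-values given for its change with time are no independent evidence. The log2 fold change was 0.70 in the UVD group (SE 0.15, a fold of 1.62) and 0.49 in the SO group (SE 0.15, a fold of 1.41).

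The normalized intensity of miR-195-5p in the UVD group was 1077 and 1115 at 4 h and 1709 and 2212 at 4 d. In the SO group it was 962 and 912 at 4 h and 1201 and 1709 at 4 d. As for its cluster partner, the 4 arrays at 4 d were all above the 4 arrays at 4 h, and the 4 d groups had the wider spread. In the UVD group this wider spread was that of the normalized values. Before normalization the total gene signals of its 4 d arrays were 2199 and 2088 for miR-195-5p and 1885 and 1826 for miR-497-5p. The log2 fold change with time was 0.83 in the UVD group (SE 0.20, limma adjusted p = 0.218) and 0.61 in the SO group (SE 0.20, limma adjusted p = 0.165). Without SO 4 d replicate 2 the SO value was 0.36, and that of miR-497-5p was 0.32.

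**Figure D1:**
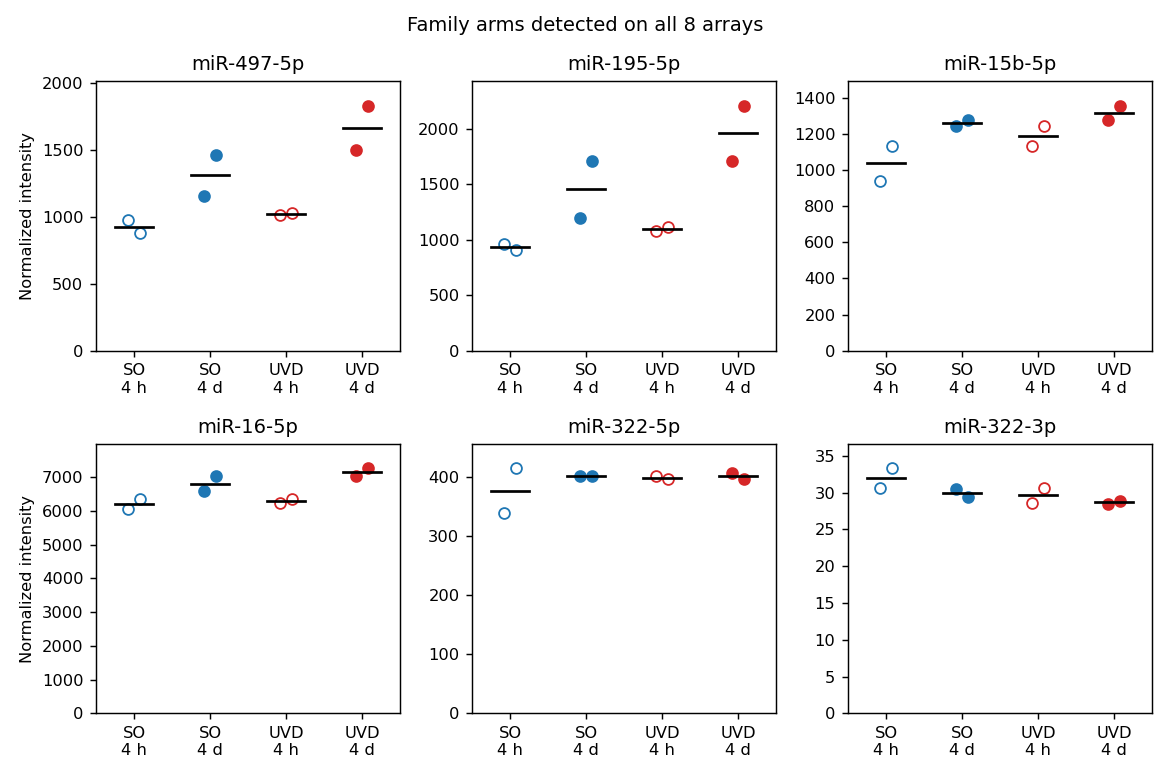
Normalized intensity (linear axis from 0, a separate axis for each miRNA) of the 6 family arms detected on all 8 arrays, by group. Points are arrays, open at 4 h and filled at 4 d, blue for SO and red for UVD, and bars are means of 2 arrays; for miR-497-5p, miR-195-5p and miR-16-5p all 4 d arrays lie above all 4 h arrays, and miR-322-5p stays between 339 and 414.

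miR-16-5p and miR-15b-5p had smaller differences with time in the same direction. The normalized intensity of miR-16-5p in the UVD group was 6228 and 6360 at 4 h and 7029 and 7267 at 4 d. In the SO group it was 6045 and 6360 at 4 h and 6578 and 7029 at 4 d, so the 4 d arrays were again all above the 4 h arrays. The log2 fold change was 0.18 in the UVD group (SE 0.06, limma adjusted p = 0.282) and 0.13 in the SO group (SE 0.06, limma adjusted p = 0.273).

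The normalized intensity of miR-15b-5p in the UVD group was 1133 and 1242 at 4 h and 1275 and 1357 at 4 d. In the SO group it was 939 and 1133 at 4 h and 1242 and 1275 at 4 d. The timepoints did not overlap within either operation, but the higher UVD array at 4 h equalled the lower SO array at 4 d. The log2 fold change was 0.15 in the UVD group (SE 0.11, limma adjusted p = 0.51) and 0.29 in the SO group (SE 0.11, limma adjusted p = 0.194).

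The arms of miR-322 had time differences near 0. The normalized intensity of miR-322-5p in the UVD group was 402 and 396 at 4 h and 407 and 396 at 4 d, and in the SO group it was 339 and 414 at 4 h and 402 and 402 at 4 d. The timepoints overlapped in both operations, and the log2 fold change was 0.01 in the UVD group (95% interval -0.25 to 0.27) and 0.10 in the SO group (95% interval -0.16 to 0.36). miR-322-3p, which lacks the family seed, lay between 28.5 and 33.3 on all 8 arrays, with log2 fold changes of -0.05 (SE 0.07) in the UVD group and -0.10 (SE 0.07) in the SO group.

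In limma, 0 of 7 tested members passed the adjusted threshold for time in the UVD group, beside 0% of all tested miRNAs, and 0 of 7 passed for time in the SO group, beside 1.66%. At an unadjusted p under 0.05 there were 3 of 7 in the UVD group, miR-497-5p, miR-195-5p and miR-16-5p, beside 15.4% of all tested miRNAs. In the SO group there were also 3 of 7, miR-497-5p, miR-195-5p and miR-15b-5p, beside 23.7%. The methods' t-test gave 0 members after Benjamini-Hochberg adjustment in both groups. At its own threshold of 0.15 it gave 3 members in the UVD group, miR-497-5p, miR-195-5p and miR-16-5p, beside 27.0% of tested miRNAs. For time in the SO group it gave 2 members, miR-497-5p and miR-195-5p, beside 34.1%. The 4 d arrays did not overlap with the 4 h arrays and were higher for 4 of 7 members in the UVD group, beside 19% of tested miRNAs, and for 4 of 7 in the SO group, beside 25.6%.

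The mean of the time differences after the 2 operations drew on all 8 arrays and had the narrowest intervals. For miR-497-5p it was 0.60 on the log2 scale (SE 0.11, 95% interval 0.32 to 0.87, limma adjusted p = 0.0651), a fold of 1.51. For miR-195-5p it was 0.72 (SE 0.14, 95% interval 0.36 to 1.08, limma adjusted p = 0.0693), a fold of 1.65. miR-16-5p had 0.16 (SE 0.04, limma adjusted p = 0.102), miR-15b-5p 0.22 (SE 0.08, limma adjusted p = 0.142) and miR-322-5p 0.05 (SE 0.07, limma adjusted p = 0.653).

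For this mean, 0 of 7 members passed the adjusted threshold in limma, beside 1.66% of tested miRNAs. At an unadjusted p under 0.05 there were 4 of 7, beside 28% of tested miRNAs, and all 4 were higher at 4 d, beside 11.6% that were higher. For 3 of 7 members, miR-497-5p, miR-195-5p and miR-16-5p, the 4 arrays at 4 d lay above the 4 at 4 h, beside 5.45% of tested miRNAs. The median log2 fold change of the 7 members was 0.16, and that of all tested miRNAs was 0.00. It was 0.15 for time in the UVD group beside -0.01 for all tested miRNAs, and 0.13 for time in the SO group beside 0.00.

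The call for the mean time difference depended on the setting. miR-497-5p passed in 5 of 18 alternatives (log2 fold change 0.47 to 0.70, limma adjusted p between 0.0297 and 0.165) and miR-195-5p in 6 of 18 (0.59 to 0.86, limma adjusted p between 0.0244 and 0.165). Both were higher at 4 d in all 18. Calls over all tested miRNAs varied as well, from 0 with a replicate block to 41 with the authors' normalized values, beside 7 in the main model. Without replicate 1 of the SO group at 4 d, the array with the lower levels of both in that group, miR-497-5p had 0.69 (limma adjusted p = 0.033) and miR-195-5p 0.86 (limma adjusted p = 0.0323).

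**Figure D2:**
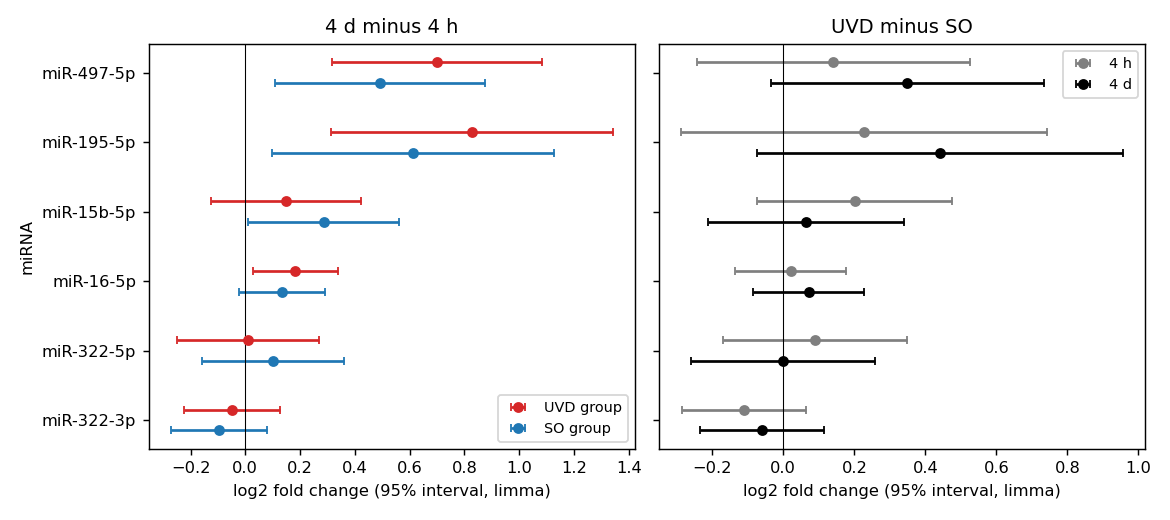
Log2 fold change (horizontal axis) of the 6 arms detected on all 8 arrays, with 95% intervals from limma; the left panel shows 4 d minus 4 h in the UVD group (red) and the SO group (blue), the right panel UVD minus SO at 4 h (gray) and 4 d (black). The time intervals of miR-497-5p and miR-195-5p lie above 0 in both operations, and each interval for UVD minus SO includes 0.

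Each of the arms detected on all arrays was read by 2 probes, and the probes of each 5p arm gave the same direction for the mean time difference. The log2 differences of the 2 probes were 0.52 and 0.57 for miR-497-5p, 0.67 and 0.73 for miR-195-5p, 0.24 and 0.22 for miR-15b-5p, 0.23 and 0.12 for miR-16-5p, and 0.09 and 0.11 for miR-322-5p. The direction of the mean time difference thus did not rest on 1 probe of any of these arms. For time in the UVD group, the 2 probes of miR-16-5p gave 0.28 and 0.08. For UVD minus SO at 4 d, the probes had opposite signs for miR-16-5p (0.16 and -0.05) and miR-322-5p (-0.02 and 0.03). They had the same sign for the other 5p arms.

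The comparison of the UVD group with the SO group sets the deafferentation against the sham surgery. In this comparison slide row cannot be told apart from operation. The arrays are those of the time comparisons. At 4 h the log2 difference was 0.14 for miR-497-5p (95% interval -0.24 to 0.53, limma adjusted p = 0.666) and 0.23 for miR-195-5p (95% interval -0.29 to 0.74, limma adjusted p = 0.617). At 4 d it was 0.35 for miR-497-5p (95% interval -0.04 to 0.73, limma adjusted p = 0.745) and 0.44 for miR-195-5p (95% interval -0.07 to 0.96, limma adjusted p = 0.745). Both were higher in the UVD group under all 19 alternatives, none of which passed, but single arrays decided the size. Without SO 4 d replicate 1 the 4 d difference was 0.18 for each, and without SO 4 d replicate 2 it was 0.51 for miR-497-5p and 0.69 for miR-195-5p. Without UVD 4 d replicate 2 it was 0.21 for miR-497-5p and 0.25 for miR-195-5p. At 4 h, leaving out SO 4 h replicate 2 gave 0.07 for miR-497-5p. The intervals leave room for no difference as well as for a fold of 1.66 for miR-497-5p and 1.94 for miR-195-5p at 4 d. In the study's qRT-PCR on a separate set of animals, miR-497-5p had no significant difference between the UVD and SO groups (Mann–Whitney test). It was not kept as a candidate.

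For miR-497-5p, the groups in order of mean normalized intensity were SO at 4 h (928 ± 68.0, SD, n = 2), UVD at 4 h (1022 ± 11.8), SO at 4 d (1312 ± 214) and UVD at 4 d (1668 ± 234). The last neighbors differed by 356, less than the sum of their SDs of 448, while the other neighbors differed by more than that sum. For miR-195-5p the order was the same, with 937 ± 35.9, 1096 ± 27.1, 1455 ± 359 and 1960 ± 355. The differences between UVD at 4 h and SO at 4 d and between SO at 4 d and UVD at 4 d were within the sum of the SDs. Total gene signals before normalization at 4 d were 1856 ± 41.2 (UVD) and 1289 ± 227 (SO) for miR-497-5p. For miR-195-5p they were 2143 ± 78.6 and 1389 ± 300, beyond the sum of the SDs for both arms. With no scaling, the median log2 difference of all tested miRNAs between UVD and SO at 4 d was 0.16.

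At 4 h, 0 of 7 members passed the adjusted threshold in limma, beside 0.474% of tested miRNAs, and 1 of 7, miR-15b-3p, had an unadjusted p under 0.05, beside 17.1%. At 4 d, 0 of 7 passed, beside 0%, and 1 of 7, again miR-15b-3p, had an unadjusted p under 0.05, beside 3.79%. The methods' t-test gave 0 after adjustment at both timepoints, and at its own threshold 2 members at 4 h, beside 31.3% of tested miRNAs, and 1 at 4 d, beside 14.0%. UVD and SO arrays did not overlap for 3 of 7 members at 4 h, beside 50.9% of tested miRNAs, and for 3 of 7 at 4 d, beside 29.4%. The median log2 difference of the members was 0.09 at 4 h beside -0.01 for all tested miRNAs, and 0.06 at 4 d beside -0.02.

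The time difference was not shown to depend on the operation. The difference between the time changes, UVD minus SO, was 0.21 on the log2 scale for miR-497-5p (95% interval -0.34 to 0.75, limma adjusted p = 0.75) and 0.21 for miR-195-5p (95% interval -0.51 to 0.94, limma adjusted p = 0.815). Without SO 4 d replicate 1 these were 0.04 and -0.05, so that the sign turned for miR-195-5p, and without UVD 4 d replicate 2 they were 0.07 for miR-497-5p and 0.04 for miR-195-5p. Without SO 4 d replicate 2 they were 0.37 and 0.47, and without UVD 4 d replicate 1 they were 0.36 and 0.42. For miR-15b-5p the difference was -0.14 (95% interval -0.53 to 0.25). By limma, 0 of 7 members passed the adjusted threshold, beside 0.237%, and 0 of 7 had an unadjusted p under 0.05, beside 8.77%.

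miR-15b-3p, the passenger arm of miR-15b, had values close to the floor and its difference between the operations depended on the processing. Its normalized intensity was 1.00 and 1.00 for UVD 4 h, 1.21 and 1.00 for UVD 4 d, 3.12 and 2.15 for SO 4 h, and 2.10 and 3.12 for SO 4 d. A value of 1 is the floor set before taking log2, and the arm was not detected on UVD 4 h replicate 2. The log2 difference between UVD and SO was -1.37 at 4 h (limma adjusted p = 0.116) and -1.22 at 4 d (limma adjusted p = 0.419).

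Before normalization the operations were not separated in this way. The total gene signal of miR-15b-3p at 4 h was 1.96 and 0.10 in the UVD group, beside 1.89 and 2.61 in the SO group. At 4 d it was 3.11 and 2.86 in the UVD group, above the 2.51 and 2.80 of the SO group. With no scaling the log2 difference at 4 d was 0.17, and with scaling to the 75th percentile of the miRNAs detected on all 8 arrays it was -0.02. No fold is given for this arm.

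**Figure D3:**
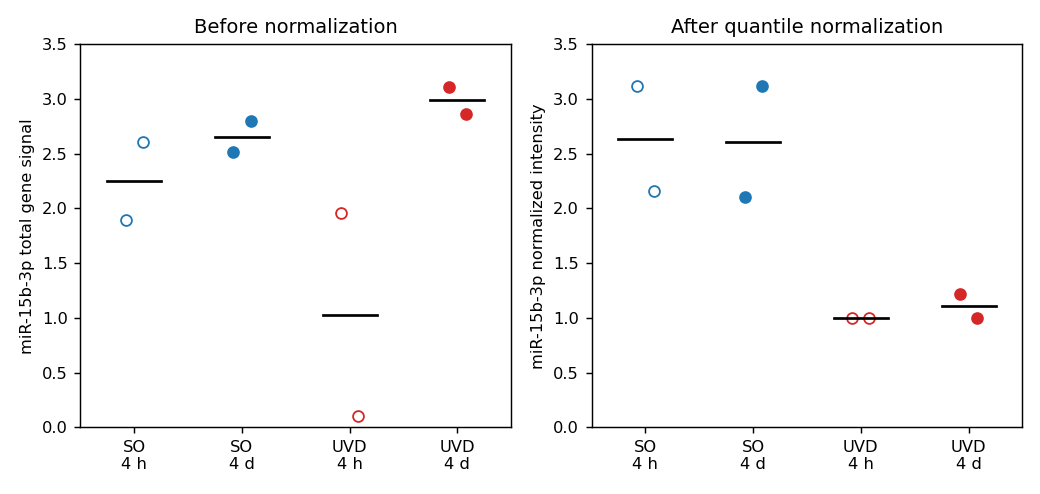
miR-15b-3p by group before normalization (left, total gene signal) and after quantile normalization (right, normalized intensity, floor 1), both on linear axes from 0. Points are arrays (open at 4 h, filled at 4 d, blue for SO, red for UVD) and bars are means of 2 arrays; the UVD arrays at 4 d are above the SO arrays at 4 d on the left, and between 1.00 and 1.21 on the right.

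Across the 8 arrays, miR-497-5p and miR-195-5p were more alike than either was to any other of the 376 miRNAs compared. Pearson's r of their log2 values was 0.995, and it was 0.976 for the deviations from the group means. With 2 arrays in a group the deviations mirror each other. The second r thus rests on 1 value per group, and no background was computed for it. In the UVD group at 4 d, the array with the higher normalized values of both had the lower total gene signals. These arrays share the group differences and the normalization, so r is a description. The median r over all pairs of miRNAs detected on all arrays was 0.01, and 1.29% of pairs had an r above 0.9. miR-378a-5p (r = 0.985), miR-500-3p (0.980), miR-142-3p (0.968) and miR-532-5p (0.960) followed for miR-497-5p, and the same 4 followed for miR-195-5p.

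The other 5p arms had other nearest miRNAs. For miR-15b-5p it was let-7a-5p (r = 0.969), for miR-16-5p it was miR-142-3p (r = 0.972) and for miR-322-5p it was let-7d-5p (r = 0.971). Within the family, r was 0.941 between miR-497-5p and miR-16-5p, 0.728 between miR-497-5p and miR-15b-5p, and 0.213 between miR-497-5p and miR-322-5p.

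**Figure D4:**
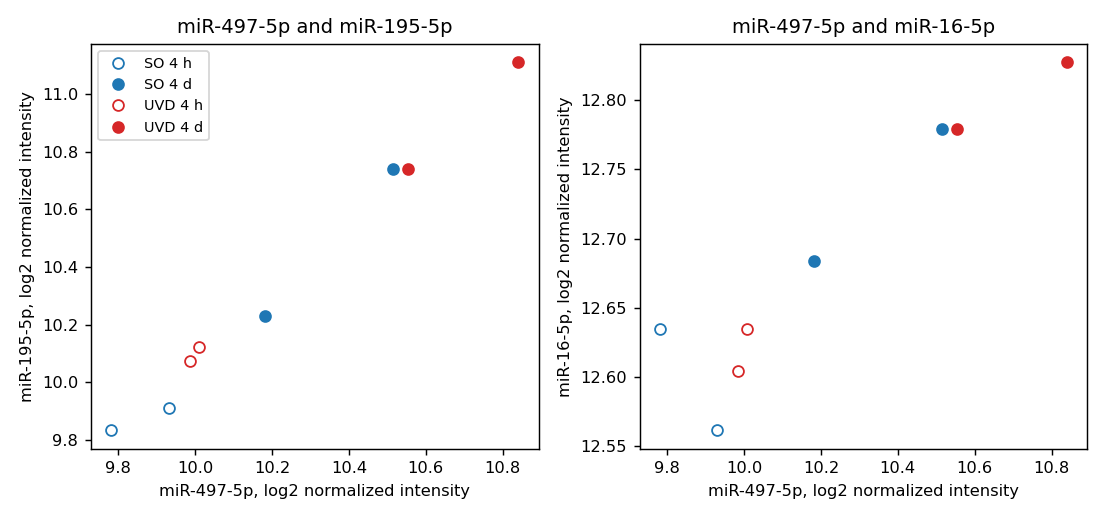
Log2 normalized intensity of miR-195-5p (left) and miR-16-5p (right) against miR-497-5p on the 8 arrays, open at 4 h, filled at 4 d, blue for SO and red for UVD. Pearson's r over the arrays was 0.995 on the left and 0.941 on the right, where the vertical axis spans a narrower range.

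Relatives of the family were taken from a list of 18 arms that neighbor the members in the genome, resemble them in sequence or are their other strands. Of these, 17 were on the array and 8 were tested. In limma 0 of 8 passed for the mean time difference, beside 1.66% of all tested miRNAs. miR-15a-5p, whose name places it in the family, had normalized intensities of 224 and 224 for UVD 4 h, 279 and 256 for UVD 4 d, 200 and 219 for SO 4 h, and 240 and 271 for SO 4 d. Its 4 d arrays were all above its 4 h arrays, as for 5.45% of tested miRNAs, and its mean log2 difference was 0.27 (SE 0.06, limma adjusted p = 0.0816).

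The neighbors of miR-322 had mean log2 differences near 0, with miR-503-5p at -0.07 (SE 0.05), miR-542-5p at -0.05 (SE 0.05), miR-542-3p at 0.04 (SE 0.09) and miR-450a-5p at -0.02 (SE 0.05). miR-351-3p, from the same group of precursors, had 0.31 with an SE of 0.62. miR-103-3p and miR-107-3p, which hold the 7 seed letters shifted by 1 base, had -0.07 (SE 0.03) and -0.02 (SE 0.05).

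**Figure D5:**
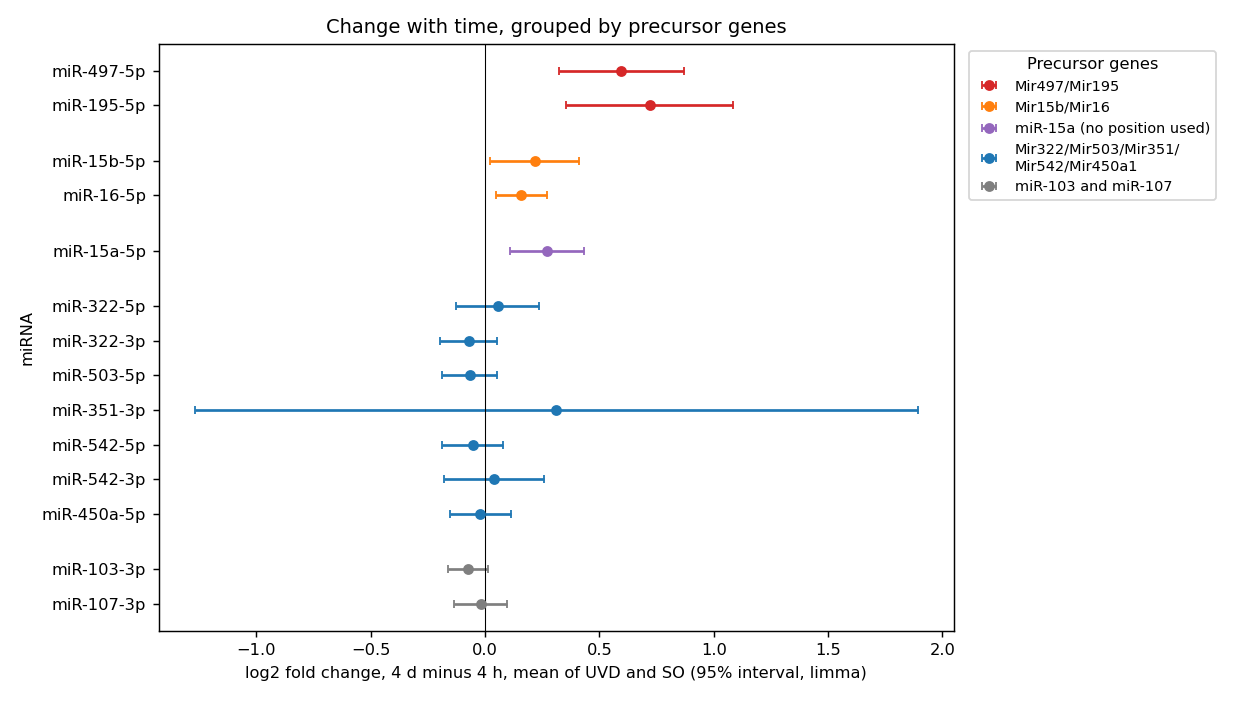
Log2 fold change, 4 d minus 4 h as the mean of the UVD and SO groups, with 95% intervals from limma, for 6 family arms and 8 relatives. Colors give the precursor genes under which RefSeq lists the arms, with no position used for miR-15a-5p. miR-497-5p and miR-195-5p lie at 0.60 and 0.72, miR-15b-5p, miR-16-5p and miR-15a-5p between 0.16 and 0.27, and the arms of the miR-322 group, except miR-351-3p with its wide interval, between -0.07 and 0.05.

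Markers of several cell types had higher means at 4 d on these arrays. Of all tested miRNAs, 50.7% were higher for the mean time difference and 1.66% passed. All 6 microglia and leukocyte miRNAs listed were detected on all arrays and had higher means at 4 d (median log2 difference 0.36, lowest 0.12, highest 0.64), and 1 of them, miR-142-5p, passed (0.47, limma adjusted p = 0.0498). Their summed normalized intensity was 3492 to 3542 at 4 h and 3900 to 4207 at 4 d in the UVD group, and 3192 to 3215 and 3711 to 3874 in the SO group. Most of this sum was miR-150-5p, the miRNA with the lowest difference, with UVD means of 2634 at 4 h and 2738 at 4 d. miR-223-3p was at 77.5 and 267 on the 2 UVD arrays at 4 d. miR-142-3p, a blood-cell miRNA, was among the 5 miRNAs most like miR-497-5p, miR-195-5p and miR-16-5p.

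The 4 erythroid miRNAs had a median log2 difference of 0.32 and the 5 of choroid plexus and ependyma one of 0.41. At 4 d 4 of 4 and 5 of 5 were higher, beside 50.7% of all tested miRNAs, and 0 and 1 passed, beside 1.66%. The 1 that passed was miR-34c-5p (0.40, limma adjusted p = 0.0498), with 0.64 in the SO group and 0.17 in the UVD group. In the UVD group 47.9% of all tested miRNAs were higher at 4 d, and in the SO group 50.2%. Taken by operation, the choroid plexus and ependyma miRNAs were higher for 5 of 5 in the UVD group (median 0.61) and for 3 of 5 in the SO group (median 0.09), the erythroid miRNAs for 4 of 4 in both (medians 0.37 and 0.26), and the microglia and leukocyte miRNAs for 6 of 6 in the UVD group (median 0.45) and 5 of 6 in the SO group (median 0.34). The erythroid sum was 740 to 944 at 4 h and 874 to 1287 at 4 d in the UVD group, and 934 to 955 and 1018 to 1061 in the SO group, and 3 of the 4 were detected on all arrays. Most of it was miR-451-5p, with UVD means of 679 at 4 h and 860 at 4 d. The choroid plexus and ependyma sum was 4907 to 4941 at 4 h and 6275 to 7955 at 4 d in the UVD group, and 4455 to 4549 and 4972 to 5219 in the SO group, and 4 of the 5 were detected on all arrays. Most of that sum was miR-204-5p, with UVD means of 3957 at 4 h and 5948 at 4 d. The neuron list had a median of -0.05, with 1 of 7 passing, miR-137-3p, which fell by 0.57 on the log2 scale (limma adjusted p = 0.0409), and the vessel list had -0.01 with 0 passing. The oligodendrocyte list had a median of -0.004, with 2 of 4 higher and 0 passing. By operation its median was -0.09 with 0 of 4 higher in the UVD group and 0.08 with 3 of 4 higher in the SO group. The muscle list had a median of 0.25, with 4 of 4 higher and 0 passing, from a median of -0.08 with 1 of 4 higher in the UVD group and 0.63 with 4 of 4 higher in the SO group. The part of these cell types in the time difference of miR-497-5p and miR-195-5p was not tested.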

How the data were processed

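Total RNA of the left MVN was labeled with 1 dye and hybridized to 8 rat miRNA arrays, 2 for each of 4 groups, as given in the sample titles. The files the authors deposited hold spot intensity and a total gene signal per miRNA, read with Agilent Feature Extraction 10.7.3.1 per the file headers, and their own normalized intensity values, quantile normalized in GeneSpring. Here, total gene signals of 758 miRNAs were quantile normalized, values under 1 were set to 1, and log2 was taken. The 422 miRNAs that both arrays of some group detected entered 1 limma model of all groups (limma 3.58.1, R 4.3.3, lmFit with eBayes, Benjamini-Hochberg, threshold 0.05). Quantile normalization forces 1 distribution on all arrays, gives tied values, and can move values near the floor. The precision is limited by 2 arrays per group.

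The 19 alternatives were other scalings, normexp with an offset of 50, the authors' normalized values, other filters and floors, an intensity trend, the compared groups only, a replicate block, and fits without any 1 array. The methods' t-test was also run; it was undefined for 8 to 13 miRNAs per comparison. Normexp was planned on the mean spot signal and was run on the median, the column in the files used here. The model was tested on simulated data. The members, relatives and marker lists were chosen with earlier results of these data known. miRNAs named were the members, the relatives, the marker lists, and the 5 miRNAs most correlated with each 5p arm. Sequences and positions are from RefSeq (GRCr8).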

Additional observations from a re-analysis of the deposited data

How the results depend on the processing

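Of 778 values of single members under the alternatives, 762 kept their direction, or stayed within their SE, and their side of the threshold, 15 came to pass it and 1 reversed beyond its SE, which was miR-322-3p over time in the SO group (0.0826 on the log2 scale with the 75th percentile of all miRNAs). For the mean time difference, limma called 2 members with the 75th percentile of all miRNAs, 2 with no scaling, 3 with normexp, 2 with the authors' normalized values and 3 with an intensity trend. Over all 422 tested miRNAs it called 18, 6, 26, 41 and 36 in these settings, in the same order, and 7 in the main model. For time in the SO group it called 1 member with normexp (miR-16-5p), beside 15 of all 422. The methods' t-test at its own threshold called 3 and 2 members for time in the UVD and SO groups, and 2 and 1 for UVD against SO at 4 h and 4 d. The family median moved to 0.34 and 0.38 for the mean time difference with the 75th percentile of all miRNAs and with no scaling, where the median of all tested miRNAs moved to 0.12 and 0.16; relative to that median, miR-497-5p was at 0.55 and miR-195-5p at 0.68 under both. With no scaling the family median was 0.51 for time in the UVD group, 0.26 for UVD against SO at 4 d and 0.34 for the difference between the time changes (all tested miRNAs: 0.26, 0.16 and 0.31). With the 75th percentile of miRNAs detected on all 8 arrays it was 0.32 for time in the SO group, 0.23 for UVD against SO at 4 h and -0.0817 for the difference between the time changes (all tested: 0.09, 0.12 and -0.11), and with that of all miRNAs 0.43, 0.25 and -0.10 (all tested: 0.20, 0.15 and -0.13). Leaving out each array in turn gave 0.10 to 0.28 for time in the SO group, the highest without replicate 1 of the SO group at 4 d. With the replicate block, 0 members were called in each comparison, and miR-497-5p and miR-195-5p had an adjusted p of 0.102 for the mean time difference in limma. The numbers are those of the sample titles, since the source names repeat 1 number within each group; they were not shown to pair the samples, as deviations of same-numbered arrays correlated between -0.26 and 0.19 over 422 miRNAs. Apart from the settings named, the cause of these shifts was not tested. Signals near the floor, such as miR-15b-3p, limit what can be read from them.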
